A study of Mus musculus with 4 samples.

Results

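Genes of cholesterol and fatty acid synthesis were followed in mouse CD4+ T cells activated for 72 h in a Th17-polarising culture. The set was given as a list of 35 gene names, whose rule uses no measured value, although the list was drawn up with earlier results of these data known. It holds the enzymes that make isoprenoids and sterols, the SREBP regulators that control them, 3 sterol transport genes and the enzymes that make and desaturate fatty acids. A gene's value was taken from the probe set that names it alone and has the highest mean over the 4 arrays. Of the 35 genes, 34 had such a probe set, out of 18193 genes on the array, and all 34 exceeded the low-value limit on at least 1 array. Acat2 had none and was not analysed here.

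The series compared 4 cultures of naive CD4+ CD44- CD62L+ cells sorted from the spleens and lymph nodes of OT2 mice on the C57BL/6J background. OT2 is a transgenic T cell receptor. STAT3 wild-type cells came from stat3 fl/fl OT2 mice and STAT3-deficient cells from CD4-Cre stat3 fl/fl OT2 mice. STAT5 wild-type cells came from stat5 fl/fl OT2 mice and STAT5-deficient cells from CD4-Cre stat5 fl/fl OT2 mice. The Cre recombinase is driven by the Cd4 promoter and is thus active from thymic development onward. The labels do not give age or sex, and do not say whether animals were pooled. Every culture had plate-bound anti-CD3, anti-CD28, IL-6 at 20 ng/ml, TGF-β at 2 ng/ml and anti-IL-4. Both STAT3 cultures also held anti-IL-2 at 10 µg/ml, which takes away the main signal to STAT5, whereas both STAT5 cultures held added IL-2 at 100 IU/ml.

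Cells make cholesterol from acetyl-CoA through mevalonate, isoprenoid units, squalene and a series of sterols. The transcription factors SREBP-1 and SREBP-2 switch on these enzymes and those of fatty acid synthesis when membrane sterol is low, escorted out of the endoplasmic reticulum by SCAP and held back there by the INSIG proteins. Oxysterols acting on the LXR receptors induce the efflux pumps ABCA1 and ABCG1 and raise SREBP-1c. T cells that leave the resting state need new membrane and switch on this programme, and sterol intermediates of the pathway are known ligands of RORγt, the regulator of Th17 cells.

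Each group was a single array. Replicates are thus lacking, differences carry neither an error nor a p-value, and how precise a value is cannot be told beyond the spread between probe sets of a gene. Levels are the deposited values, read as log2, on which 2-fold equals 1. A gene was called higher or lower at 2-fold, and a second rule at 1.5-fold (0.58) is given because most differences of the set were small. The median of all values, 6.20, served as the background level, and a gene was tested if its highest level passed it, which left 12439 genes. Array medians over all probe sets ran from 6.10 to 6.34, and the median gene tested differed by -0.20 without STAT3, 0.06 without STAT5 and 0.06 between controls. After centring of each array on its median these shifts became 0.04, 0.00 and 0.25, and after intensity-dependent centring -0.01, 0.01 and -0.01. Stat3 was lowest on the array labelled STAT3-deficient (9.93 against 12.33 to 12.87), and Stat5a (5.91) and Stat5b (6.09) lay under the background level on the array labelled STAT5-deficient, against 10.59 to 10.92 and 10.97 to 11.39 elsewhere. The deleted parts of these genes are not given, so whether the probes lie within them was not tested. The genotype label of both deficient samples also carries the words wild type, against their titles. All 10 measured CD4 T cell genes were above background on every array, with summed levels from 119.38 to 121.06. Of the 5 measured adipocyte or hepatocyte markers, tissues rich in the same enzymes, 2 (Apoa1 and Ttr) lay above background on each array and the list's summed level ran from 28.32 to 29.43. The 8 myeloid markers summed to 43.26 to 44.78, with 2 or 3 above background, and the 5 B cell markers to 27.33 to 29.49, with 0 to 2 above background. The 3 measured NK cell markers summed to 16.55 to 17.70 with only Klrc1 above background, and the 3 erythroid markers lay under it throughout. The 2 CD8 markers summed to 13.91 to 14.94, and Cd8b1 stood at 7.70 to 8.06. In RNA from a whole culture, fewer cells of a type and less RNA per cell cannot be told apart.

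Promoter sequences are shown for 4 genes because they display the elements that SREBPs work with and where the set differs within itself. RefSeq windows of GRCm38.p6, from 250 bases before to 50 after a start site, were held for 26 of the 34 genes, in 34 windows. Capitals mark matches on either strand to any of 5 motifs: TCACNCCAC, the core of a sterol regulatory element, CACGTG, the E-box that SREBPs also bind, CCAAT, the box of their partner NF-Y, GGGCGG, the GC box of their partner Sp1, and TTCNNNGAA, the core of sites bound by STAT factors.
Hmgcs1, chr13:119690101-119690400, plus strand: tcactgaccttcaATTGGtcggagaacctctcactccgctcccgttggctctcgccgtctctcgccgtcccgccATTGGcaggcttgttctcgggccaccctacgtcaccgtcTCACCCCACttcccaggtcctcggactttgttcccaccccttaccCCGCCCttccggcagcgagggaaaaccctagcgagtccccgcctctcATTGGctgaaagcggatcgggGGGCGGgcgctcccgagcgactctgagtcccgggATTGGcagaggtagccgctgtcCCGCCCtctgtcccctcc
Idi1, chr13:8885356-8885655, plus strand: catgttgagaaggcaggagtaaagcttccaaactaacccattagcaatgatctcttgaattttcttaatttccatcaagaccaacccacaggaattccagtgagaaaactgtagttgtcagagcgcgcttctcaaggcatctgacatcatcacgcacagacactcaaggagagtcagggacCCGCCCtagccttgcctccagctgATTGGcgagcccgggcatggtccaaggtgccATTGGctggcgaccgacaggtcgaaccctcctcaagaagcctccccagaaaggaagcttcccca
Idi2, chr13:8952613-8952912, plus strand: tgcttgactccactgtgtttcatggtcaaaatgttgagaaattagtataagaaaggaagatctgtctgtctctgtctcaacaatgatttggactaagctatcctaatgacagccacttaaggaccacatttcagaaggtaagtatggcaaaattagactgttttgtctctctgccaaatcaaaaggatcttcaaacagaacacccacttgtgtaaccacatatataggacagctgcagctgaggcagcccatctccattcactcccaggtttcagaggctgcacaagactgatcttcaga
Ebp, chrX:8193463-8193762, minus strand: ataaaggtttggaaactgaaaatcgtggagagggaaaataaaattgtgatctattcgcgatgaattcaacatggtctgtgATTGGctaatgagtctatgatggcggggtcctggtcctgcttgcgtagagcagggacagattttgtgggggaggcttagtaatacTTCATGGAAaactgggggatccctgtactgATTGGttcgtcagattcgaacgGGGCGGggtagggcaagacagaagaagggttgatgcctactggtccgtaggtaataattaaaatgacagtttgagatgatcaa

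Hmgcs1, which makes HMG-CoA, held the sterol element core (first base at -137 from the start site) together with 4 CCAAT and 3 GC boxes. It was the only one of the 26 genes with that core, which occurred in 2.94% of the set's windows and 1.24% of all 32851. The CCAAT box was present in 21 of 34 windows (61.8%, against 37.4% of all) and the GC box in 25 (73.5%, against 35.7%). The E-box was found in 7 windows (20.6%, against 7.15%), belonging to Abca1, Dhcr7, Hsd17b7, Insig1, Sc5d and Scap. The windows of Scap overlap and hold the same E-box (at 28 and -40 from their start sites), which is thus counted in both. Ebp was the only one of the 26 genes with the STAT core, at -85 (2.94% of windows, against 8.3% of all). Idi1 held 2 CCAAT boxes and 1 GC box, while the window of its neighbour Idi2 held none of the 5 motifs. A match is a description of letters and not of binding, and no match says only that these letters are not in this window.

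**Figure D1:**
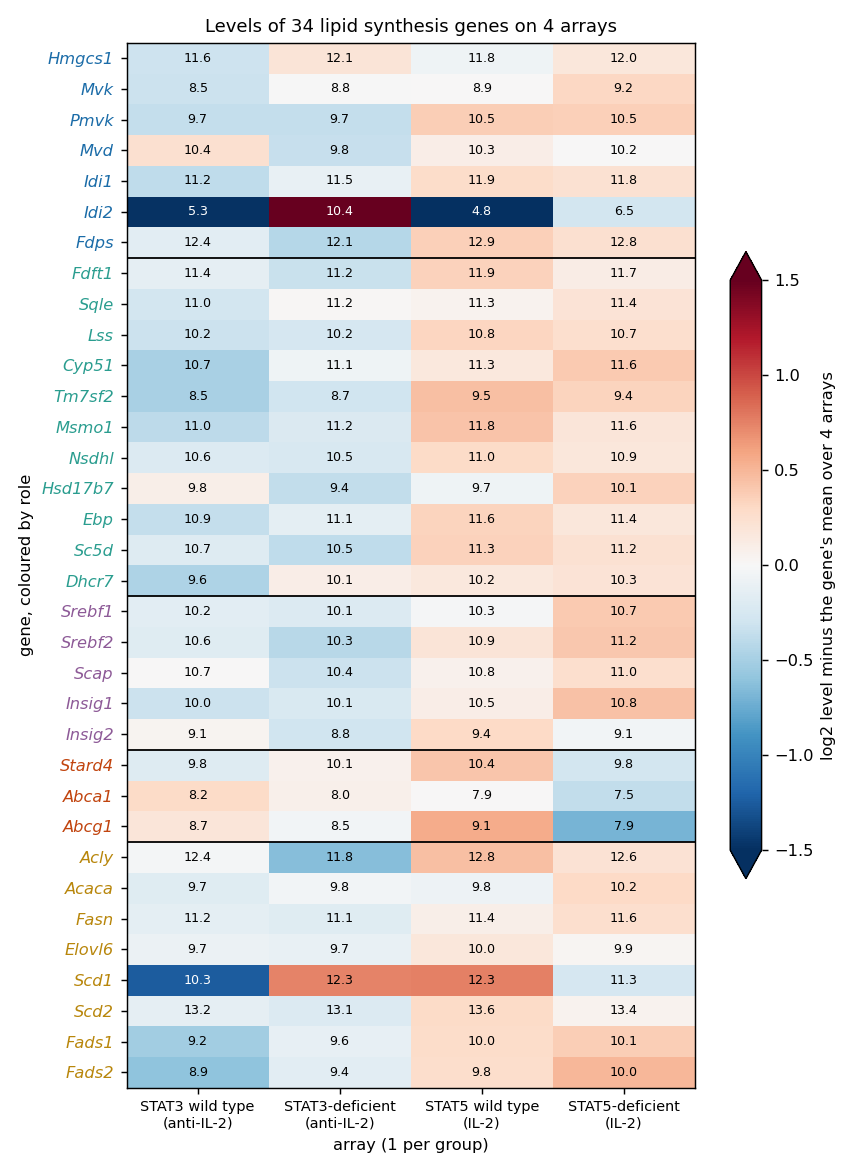
Deposited log2 level of 34 genes (rows, coloured and separated by role) on the 4 arrays (columns), printed in each cell. Cell colour is the level minus the gene's own mean over the 4 arrays, and the scale ends at 1.5, which Idi2 passes. Most rows are blue or pale on the STAT3 wild-type array and red on the STAT5 wild-type array, while Idi2 and Scd1 follow patterns of their own.

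The 2 control cultures differ in IL-2, added in one and neutralised in the other, and in the floxed allele their mice carried, and these cannot be told apart. Most lipid synthesis genes lay on the higher side in the control with IL-2. Of the 34 genes, 30 lay above 0 (88.2%), against 55.3% of all genes tested, and the set's median difference was 0.45 against 0.06. At 2-fold 1 was higher and 0 lower, against 5.3% of all genes called either way, 2.35% higher and 2.95% lower. At 1.5-fold 12 were higher (35.3%) and 0 lower, against 10.8% and 9.97% of all genes (20.8% either way). Over the 4 arrays, the lowest level lay on the STAT3 wild-type array for 15 genes (44.1%, against 20.4% of all genes tested), on the STAT3-deficient array for 15 (44.1%, against 52.0%), on the STAT5 wild-type array for 1 (2.94%, against 15.7%) and on the STAT5-deficient array for 3 (8.82%, against 11.9%). The highest lay on the STAT5 wild-type array for 17 of 34 (against 23.4% of all), on the STAT5-deficient array for 13 (38.2%, against 38.7%) and on the STAT3 wild-type and STAT3-deficient arrays for 2 each (5.88%, against 26.9% and 11.0%). With arrays centred, the STAT3 wild-type array was lowest for 25 genes (73.5%, against 40.7%).

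How large that difference is depends on the scaling. Of the 34 genes, 31 had a mean level above the median of the genes tested, and brighter genes as a whole were higher on the array with IL-2. After intensity-dependent centring 25 of 34 genes lay above 0 (73.5%, against 48.8% of all), with a median of 0.23 against -0.01, and 4 passed 1.5-fold (11.8%, against 8.03%). With each array centred on its median, 32 lay above 0 (94.1%, against 70.8%), with a median of 0.64 against 0.25, and 19 passed 1.5-fold (55.9%, against 21.4%). Among the 7721 genes that exceeded the 75th percentile of all values, the 33 members in that range had a median of 0.47, against 0.18.

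The mevalonate branch came first in the pathway and was uneven between controls. Pmvk, the second kinase of mevalonate, stood at 9.75 in both cultures of the STAT3 pair and at 10.47 (control) and 10.46 (deficient) in the STAT5 pair. It thus split between the 2 pairs, 0.72 higher in the control with IL-2, while the deficient cultures differed from their controls by -0.00 and -0.01. The pairs differ in floxed line as well as in IL-2. Idi1, the isomerase that makes dimethylallyl diphosphate, stood at 11.24 and 11.50 in the STAT3 pair and 11.89 and 11.85 in the STAT5 pair (0.65 between controls). Fdps, which makes farnesyl diphosphate, was 0.52 higher, Mvk, the first mevalonate kinase, 0.33, and Hmgcs1 0.24. Hmgcs1 was at -0.01 after intensity-dependent centring, so it has no settled direction. Mvd, the decarboxylase that ends this branch, lay at -0.15, or at 0.05 with arrays centred, and its other probe set at 0.49. Idi2 was under background in both controls.

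From squalene onward the differences between controls ran from -0.16 to 0.94. Of 11 genes, 10 lay above 0 between controls as deposited and after intensity-dependent centring, all 11 with arrays centred, and 6 passed 1.5-fold as deposited, with a median of 0.62. Tm7sf2, a sterol C14 reductase, stood at 8.54 and 8.73 in the STAT3 pair and 9.48 and 9.36 in the STAT5 pair, the farthest of the 11 between controls (0.94). Msmo1, the sterol C4 methyl oxidase, stood at 11.02, 11.19, 11.83 and 11.59 in the same order (0.81). For both genes the 2 arrays of the STAT5 pair, with IL-2, were above the 2 of the STAT3 pair. IL-2 and floxed line cannot be told apart here either. Ebp, a sterol isomerase, was 0.69 higher in the IL-2 control, Cyp51, the lanosterol demethylase, 0.65, Lss, which closes the sterol ring, 0.64, and Dhcr7, which makes cholesterol from its last precursor, 0.62. After intensity-dependent centring only Tm7sf2 (0.82) of these 6 stayed past 1.5-fold, with Msmo1 at 0.57 and the others at 0.41 to 0.45. Sc5d, a desaturase, was at 0.54, Nsdhl, which removes the C4 carboxyl group, at 0.49, Fdft1, squalene synthase, at 0.47 and Sqle, which oxidises squalene, at 0.33. Other probe sets above background gave -0.33 and 0.73 for Lss, -0.25, -0.11 and 0.45 for Fdft1, -0.07 for Sc5d, and 0.93 and 0.68 for Cyp51. Hsd17b7, the ketone reductase of C4 demethylation, was the exception at -0.16, with its 4 probe sets between -0.85 and -0.05 where they exceeded background.

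Fatty acid genes lay on the same side, all 8 above 0 as deposited and 6 after intensity-dependent centring. Fads2, the first desaturase of polyunsaturated fatty acids, had levels of 8.93 in the STAT3 control, 9.39 without STAT3, 9.80 in the STAT5 control and 10.04 without STAT5. Fads1, the second, stood at 9.19, 9.60, 9.99 and 10.08. By these probe sets both were lowest in the STAT3 control and highest without STAT5, 0.87 and 0.79 apart between controls. The other probe set of Fads1 had the reverse order, at 7.56, 7.33, 7.27 and 7.05 (-0.30 between controls). Other probe sets of Fads2 gave 0.04 and 1.26 between controls. Acly, which makes cytosolic acetyl-CoA, was 0.48 higher, Scd2, a stearoyl-CoA desaturase, 0.41, and Elovl6, an elongase, 0.27. Fasn, the fatty acid synthase, lay at 0.24 and Acaca, its malonyl-CoA supplier, at 0.11, and both lay just below 0 after intensity-dependent centring (-0.00 and -0.07). Among regulators, Insig1 was at 0.43, Srebf2, which encodes SREBP-2, at 0.38, Insig2 at 0.26, Srebf1, which encodes SREBP-1, at 0.14 and Scap at 0.05, so that all 5 lay above 0 but Srebf1 and Scap lay below it after intensity-dependent centring (-0.07 and -0.17).

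**Figure D2:**
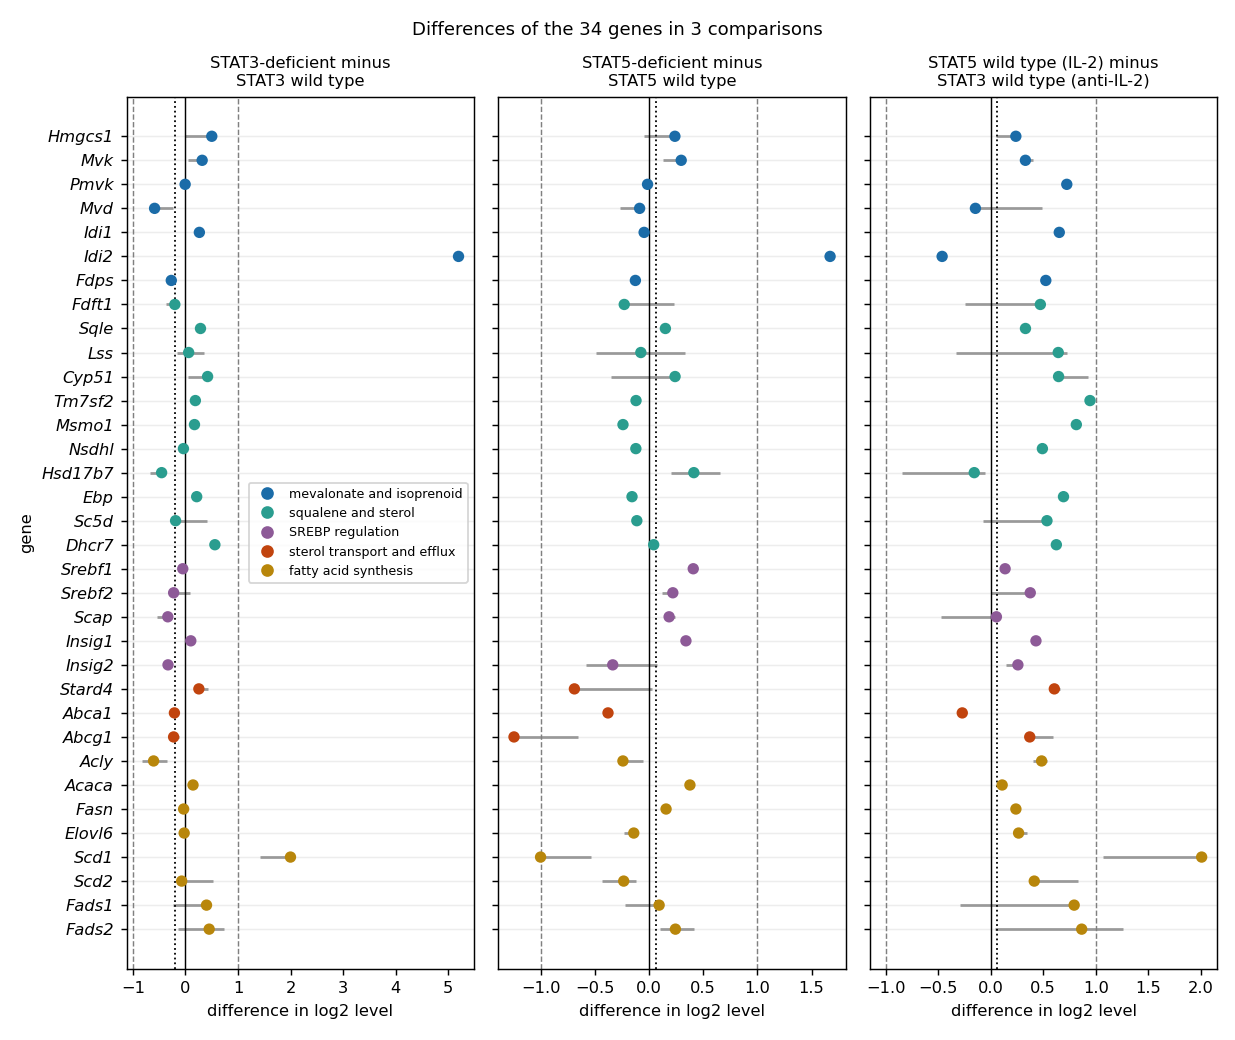
Differences in log2 level of the 34 genes (rows, coloured by role) in the 3 comparisons, with an x axis of its own in each panel. Points are the probe set used, grey bars span all probe sets of the gene above background, the dotted line is the median of all genes tested and dashed lines mark 2-fold. In the right panel 30 of 34 points lie above 0, whereas the left and middle panels are spread about 0 apart from Idi2, Scd1 and Abcg1.

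Scd1, the stearoyl-CoA desaturase that makes monounsaturated fatty acids, was the 1 gene past 2-fold between controls. Its levels were 10.25 in the STAT3 control, 12.25 without STAT3, 12.26 in the STAT5 control and 11.26 without STAT5. The STAT3 control was thus the low array, the STAT3-deficient and STAT5 wild-type arrays were level within 0.01, and the STAT5-deficient array lay in between. The difference was 2.01 between controls (4.02-fold), 2.00 without STAT3 and -1.00 without STAT5, which lies just inside the 2-fold limit as deposited and just beyond it with arrays centred (-1.06). It ranked 50 among increases between controls, out of 12439 genes, and 112 among increases without STAT3. Its second probe set gave 8.37, 9.79, 9.44 and 8.90 in the same order, with differences of 1.07, 1.42 and -0.54, the same directions at smaller size. The paralogue Scd2 stood at 13.20, 13.13, 13.61 and 13.38 and did not share the size of these differences.

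Deletion of STAT3 asks what the factor activated by IL-6 adds when IL-2 is absent. Lipid synthesis genes were mostly close to their control as deposited, and 2 were far above it. At 2-fold Idi2 and Scd1 were higher and 0 were lower, against 10.1% of all genes called either way, 2.85% higher and 7.24% lower. Of the set 17 of 34 lay above 0, against 30.7% of all genes, and the set's median was 0.03 against -0.20, or 0.23 above the median of all genes. It lay 0.23 above them with arrays centred as well (0.27 against 0.04) and 0.20 above after intensity-dependent centring (0.19 against -0.01). Genes of the set above 0 then numbered 28 with arrays centred (82.4%, against 54.4% of all). After intensity-dependent centring they numbered 24 (70.6%, against 49.4%). At 1.5-fold 2 were higher (5.88%, against 5.66%) and 2 lower (5.88%, against 19.2%), with 24.9% of all genes called either way. The genes lower at 1.5-fold were Mvd and Acly, and neither passed that limit under either centring. Higher at 1.5-fold were 7 genes with arrays centred (20.6%, against 10.4% of all). After intensity-dependent centring 5 were higher (14.7%, against 9.06%).

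Among the enzymes, Dhcr7 stood at 9.59 in the control and 10.15 without STAT3 (0.56), the farthest of the sterol steps. Hmgcs1 stood at 11.56 and 12.06 (0.50), but its probe sets above background ran from -0.02 to 0.50. Cyp51 was 0.42 higher, Mvk 0.32, Sqle 0.29, Idi1 0.27, Ebp 0.22, Tm7sf2 0.19 and Msmo1 0.17. Lss (0.06), Nsdhl (-0.04) and Pmvk (-0.00) lay near 0. On the other side were Hsd17b7 (-0.45), Fdps (-0.27), Fdft1 (-0.20) and Sc5d (-0.19), of which Fdft1 and Sc5d lay above 0 with arrays centred (0.04 and 0.06). Other probe sets above background gave 0.42 for Sc5d and -0.16 and 0.35 for Lss, so neither gene has a settled direction. Mvd stood at 10.42 in the control and 9.83 without STAT3 (-0.59), with -0.24 from its other probe set.

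Acly stood at 12.36 and 11.75 in the same pair (-0.60), and 3 of its probe sets above background ran from -0.82 to -0.35. Of the other fatty acid genes, Fads2 was at 0.45, Fads1 at 0.40 and Acaca at 0.15, while Elovl6 (-0.02), Fasn (-0.03) and Scd2 (-0.07) stood at their control. Other probe sets above background gave -0.24 for Fads1 and -0.14 and 0.74 for Fads2, so the direction of these 2 genes is not settled. For Scd2 the remaining 2 probe sets gave 0.52 and 0.53. The regulators Insig2 (-0.33), Scap (-0.33), Srebf2 (-0.22) and Srebf1 (-0.05) lay below 0 and Insig1 at 0.10, but Srebf1 and Srebf2 lay above 0 with arrays centred (0.19 and 0.02). The transport genes Stard4, a carrier of sterol between membranes, Abca1 and Abcg1 lay at 0.26, -0.21 and -0.22, and all 3 were above 0 with arrays centred.

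Idi2 had the widest range of the set. This gene encodes a second isopentenyl diphosphate isomerase, next to Idi1 on chromosome 13, with the annotated start sites 67.3 kb apart. It stood at 5.25 in the STAT3 control, 10.45 without STAT3, 4.79 in the STAT5 control and 6.46 without STAT5. Both controls lay under background and the STAT5-deficient array barely above it, so only the STAT3-deficient array held a clear level. The difference without STAT3 was 5.20 as deposited, and 4.25 (19.0-fold) with the control set at the background level. Without STAT5 it was 1.67, or 0.26 on the same floor. Idi2 passed the low-value limit through the arrays on which it was high, so its difference is no independent support for the set. It has 1 probe set, and no other could be compared. Where that probe set lies relative to the exons of Idi2 was not analysed here, so its assignment to the gene rests on the platform annotation alone.

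Coding genes on both sides of Idi2 did not share that pattern. Idi1 stood at 11.24 in the STAT3 control and 11.50 without STAT3 (0.27), and Gtpbp4, the next coding gene on the other side, at 10.42 and 10.63 (0.21). Beyond them Wdr37 lay at -0.40 and Larp4b at 0.14, Pfkp at -0.45, Dip2c at -0.62 and Zmynd11 at -0.55, while Adarb2 was under background on all 4 arrays. These neighbours were looked up after the values of Idi2 were seen.

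**Figure D3:**
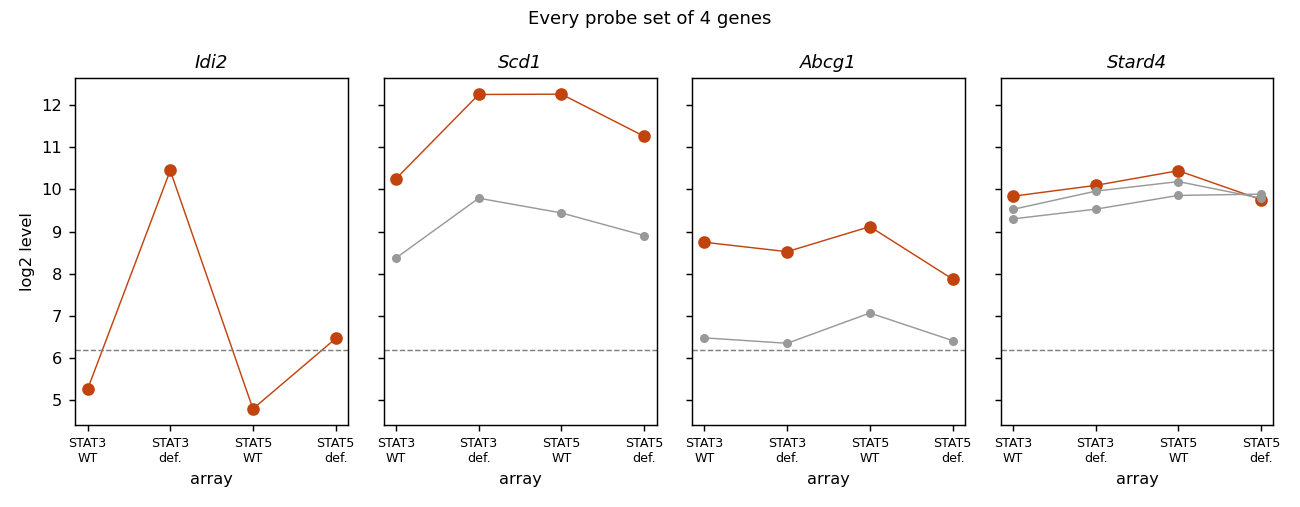
Deposited log2 level (y axis) of every probe set of Idi2, Scd1, Abcg1 and Stard4 on the 4 arrays (x axis, WT for wild type and def. for deficient). Red marks the probe set used and grey the others, lines join the values of 1 probe set and carry no order, and the dashed line is the background level of 6.20. Idi2 is clearly above background on 1 array, both Scd1 probe sets are lowest in the STAT3 control, and both Abcg1 probe sets are highest in the STAT5 control.

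Deletion of STAT5 asks what the factor downstream of IL-2 adds when IL-2 is supplied. Most lipid synthesis genes stood near their control, and the farthest below it were Abcg1, Scd1 and Stard4. At 2-fold 1 gene was higher (Idi2) and 1 lower (Abcg1), against 3.6% of all genes called either way, 1.86% higher and 1.74% lower. The call of Idi2 rests on a control under background, and with that control set at the background level its difference was 0.26, past neither limit. Of 34 genes, 15 lay above 0 (44.1%, against 59.4% of all), with a median of -0.06 against 0.06. Under either centring the median was -0.12 or -0.11, against 0.00 and 0.01. At 1.5-fold 1 was higher (2.94%, against 6.43%) and 3 lower (8.82%, against 5.18%, with 11.6% of all genes past it either way), the latter being Abcg1, Scd1 and Stard4.

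Abcg1, a pump that moves cholesterol out of cells onto lipoproteins, stood at 8.74, 8.52 and 9.12 on the STAT3 wild-type, STAT3-deficient and STAT5 wild-type arrays and at 7.87 on the STAT5-deficient array. By this probe set the STAT5-deficient culture was the lowest of the 4, by 1.25 below its own control (2.37-fold). The other probe set stood at 6.48, 6.35, 7.07 and 6.41 in the same order, close to background and lowest without STAT3. It differed by -0.65 without STAT5, so that the mean of both, -0.95, stayed inside 2-fold. Stard4 stood at 9.84, 10.09, 10.44 and 9.76, a difference of -0.69, whereas its other probe sets gave -0.40 and 0.03. Abca1, the pump that loads cholesterol onto apolipoproteins, stood at 8.17, 7.96, 7.89 and 7.52 (-0.38), also lowest without STAT5. All 3 transport genes lay below 0 as deposited and under both centrings.

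By the probe sets used, enzymes of the sterol pathway differed by at most 0.41 without STAT5, leaving Idi2 aside. Hsd17b7 had levels of 9.67 in the control culture and 10.08 in the STAT5-deficient one (0.41), the opposite side from its -0.45 without STAT3, and every probe set of it lay above 0. Mvk was at 0.30, Hmgcs1 and Cyp51 at 0.24, Sqle at 0.15 and Dhcr7 at 0.04. Other probe sets above background gave -0.35 and 0.11 for Cyp51 and -0.05 to 0.01 for Hmgcs1. Those of Hsd17b7 gave 0.21 to 0.66, past the 1.5-fold limit at the upper end. For Lss they gave -0.49 and 0.33 and for Fdft1 -0.13 to 0.24, so these genes have no settled direction. The other sterol and isoprenoid genes lay between -0.24 (Msmo1) and -0.01 (Pmvk), among them Fdft1 at -0.23, Ebp at -0.16, Fdps at -0.13, Nsdhl and Tm7sf2 at -0.12, Sc5d at -0.11, Mvd at -0.09, Lss at -0.07 and Idi1 at -0.04. The SREBP genes were on the upper side. Srebf1 stood at 10.20, 10.15, 10.33 and 10.74 over the 4 arrays, highest without STAT5 by 0.41, and Srebf2 at 10.57, 10.35, 10.95 and 11.17 (0.22). Insig1, itself a target of SREBPs, stood at 10.03, 10.13, 10.46 and 10.80 (0.34), Scap was at 0.19 and Insig2 at -0.33. In the fatty acid branch Acaca was at 0.38, Fads2 at 0.24, Fasn at 0.16 and Fads1 at 0.09, against Elovl6 at -0.14 and Scd2 and Acly at -0.23 and -0.24.

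**Figure D4:**
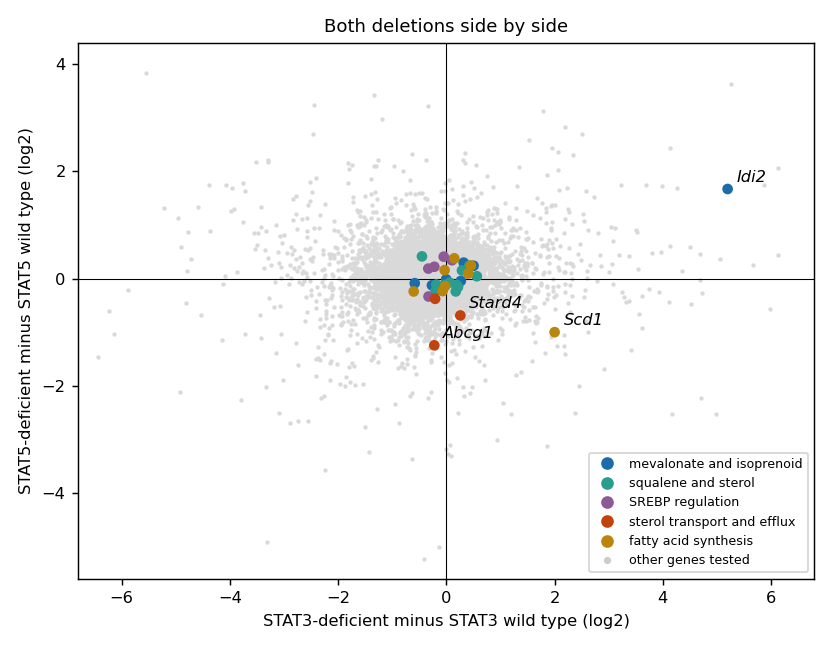
Difference in log2 level without STAT3 (x axis) against that without STAT5 (y axis), for the 34 genes (coloured by role) and the other genes tested (grey). The 2 comparisons share no array. Most of the 34 lie close to the origin, with Idi2 far to the upper right, Scd1 to the lower right and Abcg1 and Stard4 below.

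The deletions were compared side by side, since they share no array. Of 34 genes, 10 lay above 0 in both (20.1% of all genes tested did) and 12 below 0 in both (30.0%). Another 7 lay above 0 without STAT3 and below without STAT5, and 5 the other way. Of all genes tested, 30.7% lay above 0 without STAT3 and 59.4% without STAT5. Among all genes the first of these 2 classes is thus the smaller one, whereas in the set it was the larger (7 against 5). These counts are as deposited and depend on the scaling. With arrays centred 28 of 34 genes lay above 0 without STAT3 (82.4%, against 54.4% of all). Without STAT5 14 did (41.2%, against 50.2%). The split into classes was not counted under either centring. As deposited, Idi2 and Scd1 passed 1.5-fold in both deletions (5.76% of all genes tested did). With the controls of Idi2 set at the background level only Scd1 did, on opposite sides.

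**Figure D5:**
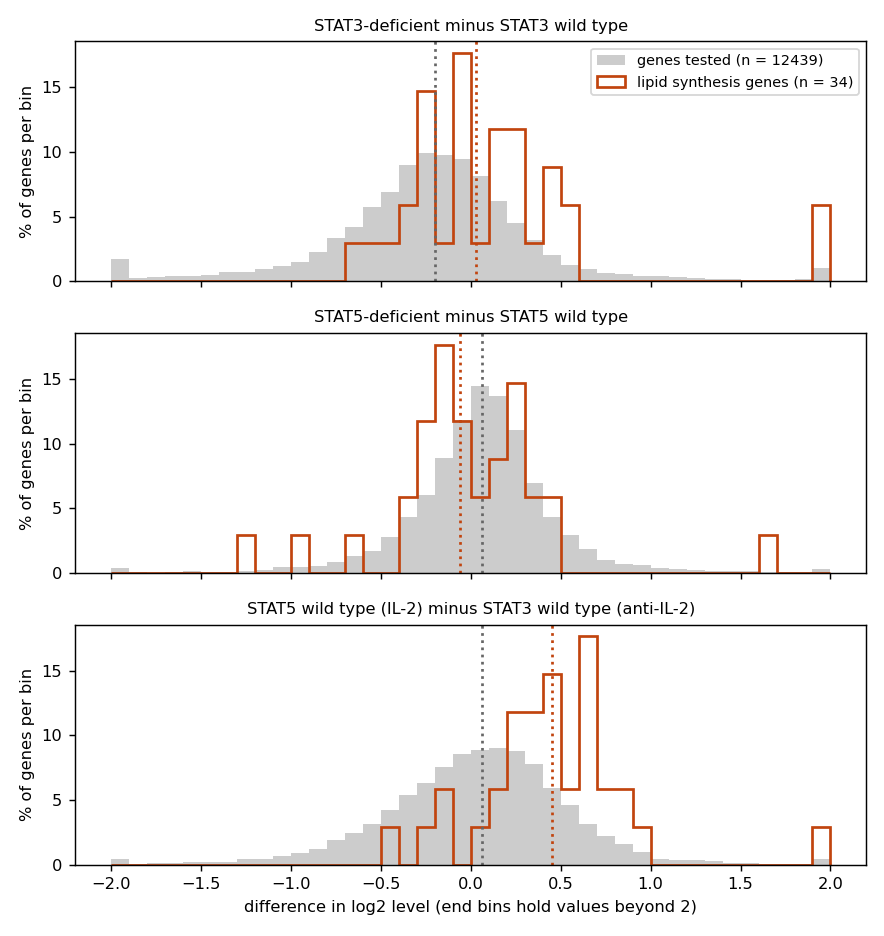
Share of genes per bin of 0.1 (y axis, %) by difference in log2 level (x axis) for the 34 lipid synthesis genes (red outline) and all 12439 genes tested (grey), in the 3 comparisons. Dotted lines are the medians, and end bins hold values beyond 2. Between controls the red median is at 0.45 and the grey one at 0.06, whereas in the 2 deletions the medians lie closer, at 0.03 and -0.20 and at -0.06 and 0.06.

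Other genes of the pathway were taken from lists. In a list of 17 further genes of sterol and isoprenoid synthesis, 14 were tested. All 14 lay above 0 between controls as deposited (55.3% of all genes did) and 12 after intensity-dependent centring (48.8%). Their median as deposited was 0.44, against 0.06 for all genes. At 2-fold 1 was higher and 0 lower, against 2.35% and 2.95% of all genes. Nus1, a subunit of the enzyme that makes dolichol chains, was that gene, at 9.39, 9.55, 10.53 and 10.53 over the 4 arrays (1.13), with its other probe sets down to 0.57. In neither deletion was any gene of this list past 2-fold, against 10.1% of all genes without STAT3 and 3.6% without STAT5. Of 10 tested genes of SREBP processing, 3 were lower and 0 higher at 2-fold without STAT3 (7.24% and 2.85% of all genes were), 1 lower and 0 higher without STAT5 (1.74% and 1.86%), and 0 passed it between controls (5.3% either way). Sec24a, a coat protein of the vesicles that leave the endoplasmic reticulum, stood at 10.06, 8.23, 10.29 and 8.95, lower than its control in both deletions (-1.83 and -1.33). Sec24d, another such coat protein, was at -1.48 without STAT3 and Mbtps2, the site-2 protease that releases SREBPs, at -1.05. With arrays centred Mbtps2 stayed inside 2-fold (-0.81), leaving 2.

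Of 7 tested genes of the LXR list, 1 passed 2-fold in any comparison, without STAT3, where 10.1% of all genes did. Rxra, the retinoid receptor that pairs with LXR, was at 1.47 without STAT3, with 0.06 from its other probe set above background. Nr1h3, which encodes LXRα, stood at 7.15, 6.71, 6.39 and 6.94, close to background throughout, and Nr1h2 was not analysed here. Mylip, an LXR target that degrades lipoprotein receptors, stood at 7.27, 7.60, 6.75 and 6.74. Without STAT5 they lay at 0.55 and -0.01. The list had a median of -0.51 between controls, against 0.06 for all genes.

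Of 14 tested genes of sterol uptake, traffic and storage, 1 was higher and 1 lower at 2-fold without STAT3 (2.85% and 7.24% of all genes), 1 lower without STAT5 (1.74%) and 1 higher between controls (2.35%). Vldlr, a lipoprotein receptor, stood at 7.69, 6.65, 7.62 and 6.46, lower in both deletions (-1.04 and -1.16), although with arrays centred the first came to -0.80. Lrp8, a related receptor, stood at 8.50, 8.28, 9.71 and 8.78, highest in the IL-2 control (1.21). Gramd1b, a sterol carrier at membrane contacts, was at 1.16 without STAT3. In a list of 23 tested genes of fatty acid synthesis and activation, 2 were lower at 2-fold without STAT3 (7.24% of all genes), 2 lower without STAT5 (1.74%), and 1 higher and 2 lower between controls (2.35% and 2.95%). Dgat1, which completes triglyceride synthesis, stood at 12.03, 9.15, 10.48 and 11.07, highest in the STAT3 control and -2.88 without STAT3. Elovl7, an elongase, stood at 8.43, 5.99, 6.73 and 7.67, the same order of arrays, with the STAT3-deficient level under background, so that the size of its difference there is not settled. Agpat3, an acyltransferase, was 1.25 higher in the IL-2 control and at -1.03 without STAT5. Acss2, which makes acetyl-CoA from acetate, stood at 8.14, 7.92, 8.97 and 7.97, with -1.00 without STAT5, just past the 2-fold limit.

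In the fatty acid oxidation list 1 of 15 genes passed 2-fold, Eci1, an enoyl-CoA isomerase, at 1.18 without STAT3 (10.1% of all genes passed it there), and the list's median between controls was 0.12 against 0.06 for all genes. Of 10 growth genes of activated T cells, 3 were higher and 0 lower at 2-fold in the IL-2 control (2.35% and 2.95% of all genes), and the other 7 passed that limit in neither direction. The list's median was 0.48 against 0.06 for all genes, or 0.22 against -0.01 after intensity-dependent centring. Slc7a5 and Slc3a2, the 2 chains of the leucine transporter, were at 2.32 and 1.38, and Tfrc, the transferrin receptor, at 1.17. Without STAT5 these stood at -0.26, -0.28 and -0.10. Myc, a driver of this growth programme, stood at 11.81, 11.14, 12.03 and 11.33, below its control in both deletions (-0.67 and -0.71). The part of cell growth in the differences of the lipid synthesis genes was not tested.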

How the data were processed

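RNA of 4 cultures was measured on Affymetrix mouse expression arrays, 1 per culture, and the sample titles gave the groups. The authors deposited log2 values per probe set (2.48 to 15.09), made with Affymetrix Power Tools per the submitters' processing notes. The log base was read from that range. The sources used here do not give the version or how probes were summarised, corrected for background and scaled, and another base would change every fold printed.

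Of 45101 probe sets, 34945 name 1 gene in the platform annotation, 932 several and 9224 none or are controls. Only the first kind was used, and symbols were checked against RefSeq genes of GRCm38.p6 (99.4% matched, 0 changed). A gene took its probe set with the highest mean over the arrays and was tested where the highest of 4 values exceeded 6.20 (percentile 50). Results are differences of log2 values at limits of 2-fold and 1.5-fold, computed in Python 3.11.15 with pandas 2.3.3 and statsmodels 0.14.6, and checked on simulated data. Alternatives were the mean of probe sets, dropping probe sets with the suffixes _s_at, _x_at and _a_at, array median centring, intensity-dependent centring (loess, span 0.4), no filter, a filter at percentile 75 (8.29), and 3-fold.

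All listed genes with a value are named. From each further list up to 4 genes past 2-fold, or else the farthest, are named, with Nr1h3, Mylip and Myc always. The members and lists were chosen with earlier results of these data known.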

Additional observations from a re-analysis of the deposited data

Results flagged for a closer look

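Scd1 differed in opposite directions in the 2 deletions, at 2.00 without STAT3 and -1.00 without STAT5, and its second probe set gave 1.42 and -0.54. This difference between the deletions was not tested, since each group is 1 array, and the deletions were made in cultures that differ in IL-2.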

How the results depend on the processing

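With 1 array per group no replicate could be left out. No paired analysis was possible because each group has 1 sample. The count of genes past 2-fold without STAT3 was 2 under every alternative run, 3-fold included. Of all genes 8.88% to 10.2% passed 2-fold there, and 4.2% passed 3-fold. Without STAT5 the count went from 2 (3.6% of all genes) to 1 with probe sets averaged (3.01%) and to 1 at 3-fold (1.15%). It rose to 3 with arrays centred (3.66%) and after intensity-dependent centring (3.63%), where Scd1 was also lower. Between controls it went from 1 to 4 with arrays centred, all higher (2.35% and 4.77% of all genes were). The count past 1.5-fold without STAT3 went from 4 (24.9% of all genes) to 2 with probe sets averaged (23.4%) and to 7 with arrays centred (20.7%). Between controls it went from 12 to 19 with arrays centred and to 4 after intensity-dependent centring, and it was 10 with probe sets averaged. All of these were higher, against 10.8%, 21.4%, 8.03% and 8.65% of all genes in that order. The median without STAT3 went from 0.03 to 0.27 with arrays centred, and between controls from 0.45 to 0.23 after intensity-dependent centring. The 2 centrings act through the array medians and the brightness of the genes, and other causes were not tested. A value counted as moved when it shifted by more than the probe sets of 1 gene typically spread (median SD 0.23 without STAT3, 0.17 without STAT5, 0.21 between controls). Centring of arrays shifts every gene of a comparison alike, and that shift exceeded the limit without STAT3 and in neither other comparison. By that measure 18 of 102 gene differences moved after intensity-dependent centring, 23 of 102 with probe sets averaged and 8 without the _s_at, _x_at and _a_at probe sets (88 did not). No difference past 2-fold changed sign. Detection calls were not used, and the 6.20 level is the only guide to signal over background.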

Other observations

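Probe sets of 1 gene can disagree by as much as the differences described. Of 20 genes of the set with several probe sets above background, all probe sets lay on one side of 0 for 14 between controls (13 higher and 1 lower), for 12 without STAT3 and for 13 without STAT5.

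Dgat1 and Elovl7 were highest in the STAT3 control and next highest without STAT5, the 2 arrays on which Scd1 was lowest. Both probe sets of Dgat1 lay below 0 without STAT3 (-2.88 and -1.54) and above 0 without STAT5 (0.59 and 0.88). Elovl7 was under background without STAT3 and stood at 0.94 without STAT5, and Scd1 stood at 2.00 and -1.00. These 3 genes were set side by side after their values were seen.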
